A study of Mus musculus with 9 samples.

Results

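Collagens are the secreted and membrane proteins with a triple helix that give tissues their fibres, filaments and basement membranes. The set described here holds every gene whose probe set carries a single platform symbol made of Col, a chain number, the letter a and a second number. It came to 44 genes on 46 probe sets, out of 19938 genes with a single-symbol probe set and 28939 probe sets tested. Col6a5 and Col6a6 had 2 probe sets each, and the one with the higher mean over all 9 arrays was taken. By structure, 11 of the genes encode chains of fibrillar collagens and 6 chains of type IV collagen, the sheet of basement membranes. Another 8 encode type VI and related filament chains, 9 the fibril-associated collagens (FACIT), 2 the multiplexins, 3 network-forming collagens, 4 transmembrane collagens and 1 the type VII collagen of anchoring fibrils.

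RNA of whole liver was measured on 9 Affymetrix arrays, 3 for each genotype, all from male mice of 8 to 9 weeks kept on standard chow. The first group, the labelled double knockout, lacks NEMO in hepatocytes and is labelled as lacking p21 throughout the body. The second, the NEMO knockout, lacks NEMO in hepatocytes with no p21 deletion in its label, and the third is wild type. All 3 groups are labelled C57/BL6. NEMO, the product of Ikbkg, is the regulatory subunit of the kinase complex that activates NF-κB, and p21, the product of Cdkn1a, inhibits cyclin-dependent kinases. No group lacked p21 alone, and the promoter that drives the deletion is not named in the labels. The deletion is labelled as hepatocyte-specific, so RNA of whole liver also holds that of cells not labelled as deleted. Replicates are told apart only by their labels, so p-values measure the spread between these arrays. All values are RMA values on the log2 scale, where a difference of 1 is a doubling of signal, and differences are given with their standard error (SE).

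Both targeted genes were read first. Ikbkg had 8.10, 8.26 and 8.45 in the labelled double knockout, 8.23, 8.48 and 8.35 in the NEMO knockout and 8.73, 8.89 and 8.98 in wild type. It was lower by label in both knockout groups, by -0.60 ± 0.11 in the labelled double knockout (limma adjusted p = 0.00835) and by -0.52 ± 0.11 in the NEMO knockout (adjusted p = 0.0184). The NEMO knockout call ended without replicate 2 or 3 of wild type or replicate 1 or 3 of that group (adjusted p up to 0.0729). The single probe set for Cdkn1a, annotated jointly with 4930567H12Rik, read 11.14, 10.14 and 11.06 in the labelled double knockout, 9.76, 10.70 and 9.83 in the NEMO knockout and 8.54, 9.64 and 7.83 in wild type. That signal was higher in the group labelled as lacking p21, at 2.11 ± 0.45 above wild type (4.31-fold, adjusted p = 0.0194), a call that ended without replicate 1 or 3 of wild type, without replicate 1 or 3 of the group itself, and with only those 2 groups in the fit (adjusted p up to 0.0764). In the NEMO knockout it was at 1.43 ± 0.45 (adjusted p = 0.101), and it was called there under array weights (1.69, adjusted p = 0.0479) and without wild type replicate 2 (1.91, adjusted p = 0.0283). Whether its probes fall inside the deleted stretch was not analysed here, so that group is called the labelled double knockout throughout. Array medians over the tested probe sets were 6.53 to 6.55 in the labelled double knockout, 6.52 to 6.58 in the NEMO knockout and 6.47 to 6.48 in wild type. Every knockout array thus had a higher median than every wild type array. NEMO knockout replicate 1 had the lowest array weight, 0.412.

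In healthy liver, collagen is sparse and lies in portal tracts, around vessels and as a thin lattice in the space of Disse between hepatocytes and the sinusoids. Hepatic stellate cells and portal fibroblasts make most of it, and after lasting hepatocyte injury they become myofibroblasts that lay down types I and III as scar. Fibrillar chains are secreted as procollagens, trimmed and cross-linked into fibrils, whereas type IV chains keep their ends and join into a sheet bound to laminin. Type VI chains form beaded filaments between the fibrils and the basement membrane.

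The promoter windows of 4 collagen genes are shown because these genes were called against wild type and represent both a head-to-head gene pair and single fibrillar genes. They run from 250 bases before to 50 bases after the annotated start and are credited to RefSeq on GRCm38.p6, 5′ to 3′ on the strand of the gene. Col4a1 lies on the minus strand at chr8:11312777-11313076 and Col4a2 on the plus strand at chr8:11312555-11312854. Their annotated starts are 21 bases apart and the windows share 78 bases, which are in capitals in both and are the reverse complement of each other.
Col4a1: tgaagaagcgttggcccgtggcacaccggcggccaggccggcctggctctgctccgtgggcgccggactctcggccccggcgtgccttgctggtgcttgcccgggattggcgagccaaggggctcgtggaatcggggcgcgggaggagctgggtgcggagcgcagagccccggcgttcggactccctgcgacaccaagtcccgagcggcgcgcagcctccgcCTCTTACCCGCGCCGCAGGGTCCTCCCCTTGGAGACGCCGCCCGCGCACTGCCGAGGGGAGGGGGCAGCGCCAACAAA
Col4a2: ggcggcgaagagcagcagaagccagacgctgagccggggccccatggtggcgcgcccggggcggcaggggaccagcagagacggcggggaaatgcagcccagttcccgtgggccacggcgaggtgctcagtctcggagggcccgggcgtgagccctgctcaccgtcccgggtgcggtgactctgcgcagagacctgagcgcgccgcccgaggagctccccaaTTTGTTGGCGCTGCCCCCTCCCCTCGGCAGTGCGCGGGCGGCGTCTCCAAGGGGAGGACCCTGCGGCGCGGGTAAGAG
Col1a2 lies on the plus strand at chr6:4505368-4505667 and Col3a1 on the plus strand at chr1:45311288-45311587. Capitals mark CCAAT, or its reverse complement, in Col1a2 and TATAAA in Col3a1.
Col1a2: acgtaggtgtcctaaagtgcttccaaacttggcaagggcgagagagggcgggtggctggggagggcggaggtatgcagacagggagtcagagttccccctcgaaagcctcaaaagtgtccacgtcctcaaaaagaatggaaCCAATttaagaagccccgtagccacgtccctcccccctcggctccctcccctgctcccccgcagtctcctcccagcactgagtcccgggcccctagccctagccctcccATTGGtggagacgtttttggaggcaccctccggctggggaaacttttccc
Col3a1: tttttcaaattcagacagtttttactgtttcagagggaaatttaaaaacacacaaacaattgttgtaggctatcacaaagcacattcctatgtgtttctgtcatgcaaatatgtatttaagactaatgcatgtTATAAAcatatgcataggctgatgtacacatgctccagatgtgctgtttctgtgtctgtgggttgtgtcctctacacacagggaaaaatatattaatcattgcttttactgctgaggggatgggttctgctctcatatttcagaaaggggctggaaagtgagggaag

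The RefSeq table held 38 windows of 35 collagen genes, among them 9 windows of 8 of the called genes. On either strand CCAAT was found in 34.2% of collagen windows (13 of 38), against 37.4% of all 32851 windows. It was found in 3 of the 9 windows of called collagens, those of Col1a2, Col4a1 and Col4a2. TATAAA was in 13.2% of collagen windows and 13.6% of all windows, and Col3a1 was the called gene that held it. GGGCGG, the core of the GC box, was in 60.5% of collagen windows (23 of 38) and 35.7% of all windows. Of the windows of called collagens, 5 of 9 held it. Each motif was counted by itself, so that ATTGG, the reverse complement of CCAAT, and GGGCGG may share bases, and a match is a description of the letters only.

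Livers lacking NEMO in hepatocytes had higher signal of the main scar and filament collagens, and most other collagens were not called. In the NEMO knockout against wild type, 11 of 44 collagen genes were called higher at an adjusted p under 0.05 and none lower, where 7.68% of all probe sets were called, 5.66% higher and 2.02% lower (limma, Benjamini-Hochberg over all probe sets). The collagens under an unadjusted p of 0.05 were 11 as well, against 20.3% of all probe sets. Their arrays did not overlap with wild type, which holds for 11.4% of all probe sets in the higher direction. The labelled double knockout against wild type had 10 collagens called higher and none lower, where 9.32% of all probe sets were called, 5.81% higher and 3.51% lower. Under an unadjusted p of 0.05 lay 12 collagens, against 21.0% of all probe sets, and 11 had groups apart in the higher direction, against 11.6%. These 10 were among the 11 of the NEMO knockout, and Col15a1 was the one missing. Both comparisons use the same wild type arrays. In the lower direction, groups stood apart from wild type for 2 collagens in the labelled double knockout and for none in the NEMO knockout, against 13.5% and 11.8% of all probe sets. The median difference over the 44 genes was -0.01 in the labelled double knockout and -0.03 in the NEMO knockout, beside -0.03 and -0.04 over all probe sets in those comparisons.

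By class, 4 of 11 fibrillar genes, 2 of 6 type IV genes, 3 of 8 type VI and related genes and 1 of 9 fibril-associated genes were called higher in each knockout group. Of the 2 multiplexins, none was called in the labelled double knockout and 1 in the NEMO knockout. No network-forming, transmembrane or type VII gene was called in either, with 8 such genes measured. Of these, Col8a1, Col8a2, Col10a1, Col17a1 and Col25a1 had a mean at or below the median level of all probe sets, 6.53. Col7a1, Col13a1 and Col23a1 had a mean above it. Over all classes, 18 collagens lay at or below that level and 26 above it, and 10 of the 11 called were above it. Whether the dimmer genes are expressed in these livers was not tested. No test between classes was made. In whole liver, more cells that make a collagen and more RNA per cell cannot be told apart.

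**Figure D1:**
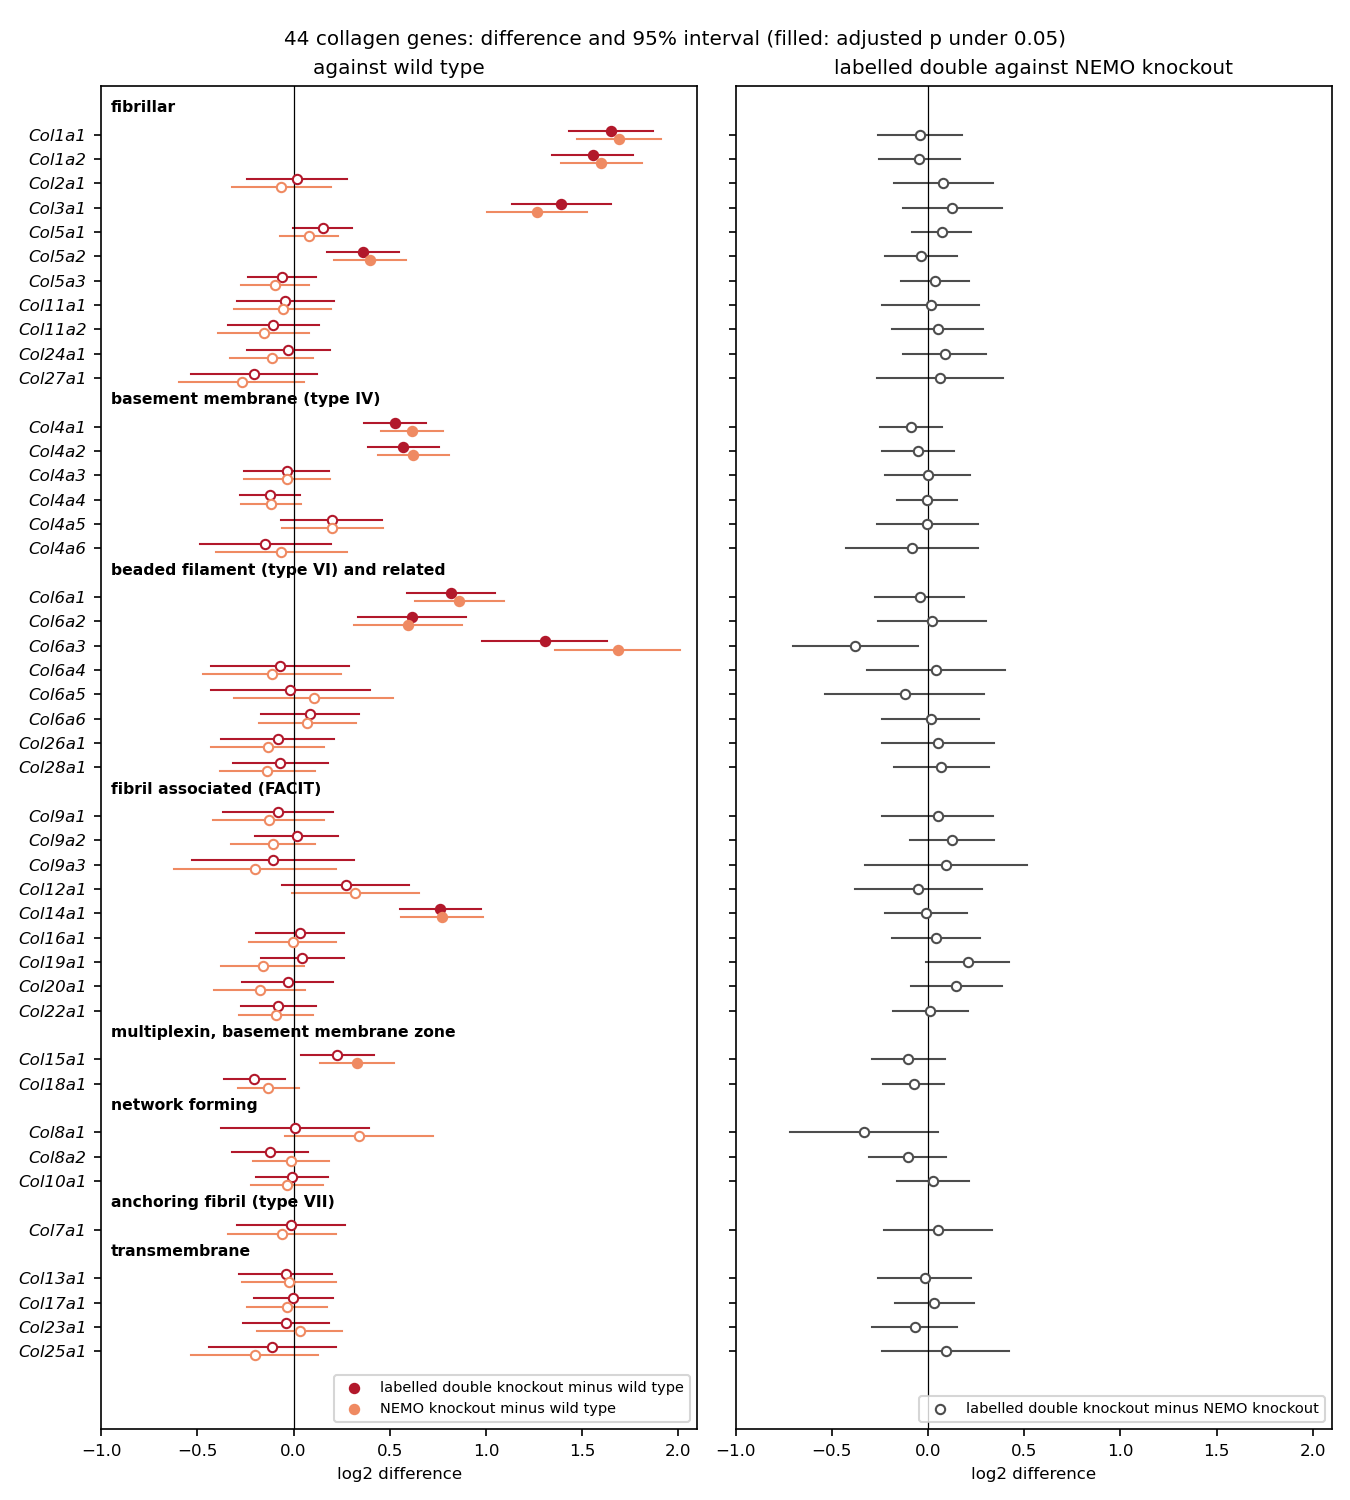
Difference in log2 signal (x axis) for each of the 44 collagen genes (rows, by class), with its 95% interval; the left panel holds both knockout groups against wild type, the right panel the knockout groups against each other. Filled points passed an adjusted p of 0.05: they lie at Col1a1, Col1a2, Col3a1, Col5a2, Col4a1, Col4a2, Col6a1, Col6a2, Col6a3 and Col14a1 in both groups and at Col15a1 in the NEMO knockout, and there is none in the right panel.

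Among the fibrillar collagens, the chains of types I and III had the large differences. Col1a1, the major chain of type I collagen, had 9.38, 9.25 and 9.31 in the labelled double knockout, 9.20, 9.30 and 9.56 in the NEMO knockout and 7.77, 7.65 and 7.57 in wild type. All 6 knockout arrays stood above the 3 wild type arrays, and the knockout groups overlapped each other. Col1a1 was 1.65 ± 0.10 above wild type in the labelled double knockout (3.14-fold, adjusted p = 8.46e-05) and 1.69 ± 0.10 in the NEMO knockout (3.23-fold, adjusted p = 0.000106). Col1a2, the partner chain in the type I heterotrimer, had 9.01, 9.02 and 8.90 in the labelled double knockout, 8.90, 8.99 and 9.18 in the NEMO knockout and 7.27, 7.53 and 7.46 in wild type. Its groups were arranged in the same way, with no overlap with wild type. Its differences were 1.55 ± 0.09 in the labelled double knockout (2.94-fold) and 1.60 ± 0.09 in the NEMO knockout (3.03-fold), with the same adjusted p-values as Col1a1.

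Col3a1, the only chain of type III collagen and the material of reticular fibres, had 8.86, 9.05 and 8.80 in the labelled double knockout, 8.73, 8.73 and 8.87 in the NEMO knockout and 7.77, 7.38 and 7.39 in wild type. Wild type replicate 1 was the high array of its group and still lay below every knockout array. Col3a1 rose by 1.39 ± 0.11 in the labelled double knockout (2.62-fold, adjusted p = 0.000198) and by 1.27 ± 0.11 in the NEMO knockout (2.41-fold, adjusted p = 0.000383).

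Col5a2, a chain of the type V collagen that starts and limits type I fibrils, is the neighbour of Col3a1 on chromosome 1, with no protein-coding gene between them. It had 6.60, 6.47 and 6.47 in the labelled double knockout, 6.62, 6.56 and 6.47 in the NEMO knockout and 6.003, 6.25 and 6.20 in wild type, so its groups stood apart from wild type by a small margin. The differences were 0.36 ± 0.08 in the labelled double knockout (adjusted p = 0.0257) and 0.40 ± 0.08 in the NEMO knockout (adjusted p = 0.0186). The value 6.47 is 1 repeated value on 3 arrays, as median polish can give, and the calls ended with single arrays left out. In the NEMO knockout this happened without wild type replicate 1 (0.32, adjusted p = 0.0575) or NEMO knockout replicate 2 (0.39, adjusted p = 0.0605). In the labelled double knockout it happened without replicate 1 or 3 of wild type or any 1 array of the group itself, with adjusted p-values up to 0.0898. The partner chain Col5a1 was not called, at 0.15 in the labelled double knockout and 0.08 in the NEMO knockout. The third type V chain, Col5a3, was at -0.06 in the labelled double knockout and -0.10 in the NEMO knockout.

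The other fibrillar genes are known for cartilage and bone, and none was called. Col2a1, the chain of cartilage fibrils, was at 0.02 in the labelled double knockout and -0.06 in the NEMO knockout. Col11a1 and Col11a2, which set the width of cartilage fibrils, were at -0.04 and -0.11 in the labelled double knockout and at -0.06 and -0.15 in the NEMO knockout. Col24a1 was at -0.03 in the labelled double knockout and -0.11 in the NEMO knockout. Col27a1 was at -0.21 ± 0.15 in the labelled double knockout and -0.27 ± 0.15 in the NEMO knockout, the lowest fibrillar difference in each comparison.

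**Figure D2:**
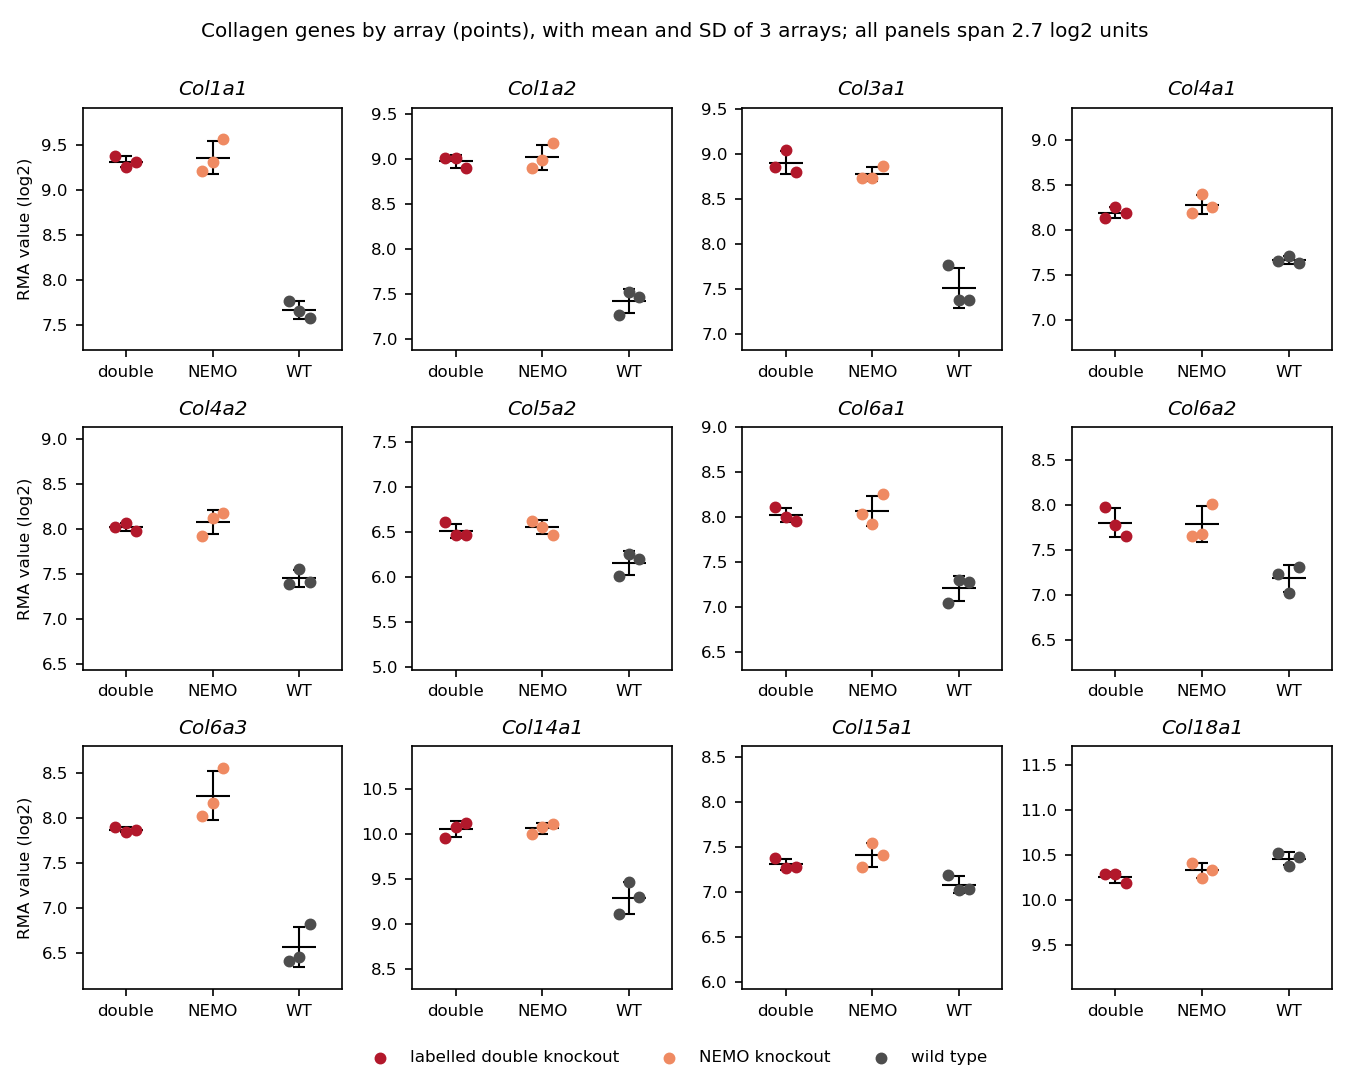
RMA value in log2 (y axis) of 12 collagen genes, 1 point per array, for the labelled double knockout, the NEMO knockout and wild type from left to right; bars are mean and SD of 3 arrays and all panels have the same span. In Col1a1, Col1a2, Col3a1 and Col6a3 the knockout arrays lie far above every wild type array, while in Col18a1 they lie within or below the wild type range.

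Type IV collagen was called in its 2 general chains, with smaller differences. Col4a1, which with Col4a2 forms the sheet of nearly all basement membranes, had 8.14, 8.26 and 8.19 in the labelled double knockout, 8.19, 8.40 and 8.25 in the NEMO knockout and 7.65, 7.71 and 7.63 in wild type. Col4a2 had 8.02, 8.07 and 7.98 in the labelled double knockout, 7.92, 8.12 and 8.17 in the NEMO knockout and 7.39, 7.56 and 7.40 in wild type. Neither gene had a knockout array within the wild type range. Col4a1 was higher by 0.53 ± 0.07 in the labelled double knockout (1.44-fold, adjusted p = 0.00196) and by 0.62 ± 0.07 in the NEMO knockout (1.53-fold, adjusted p = 0.00111). For Col4a2 the differences were 0.57 ± 0.08 in the labelled double knockout (adjusted p = 0.00273) and 0.62 ± 0.08 in the NEMO knockout (adjusted p = 0.00203). The windows of these 2 genes on chromosome 8 share the bases printed above in capitals. Their differences lay within 1 SE of each other in each comparison, and whether they are controlled together was not tested.

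The 4 remaining type IV chains are known mainly from kidney, lung and smooth muscle, and none was called. Col4a3 was at -0.04 in the labelled double knockout and -0.03 in the NEMO knockout, and its chromosome 1 neighbour Col4a4 at -0.12 in each of these groups. The 3 labelled double knockout arrays of Col4a4 lay below all wild type arrays, with no call. The X-linked neighbours Col4a6 and Col4a5 were at -0.15 and 0.20 in the labelled double knockout and at -0.06 and 0.20 in the NEMO knockout.

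Type VI collagen rose in its 3 standard chains. Col6a3, the long chain whose cleaved end is known as endotrophin, had 7.90, 7.85 and 7.87 in the labelled double knockout, 8.02, 8.18 and 8.56 in the NEMO knockout and 6.41, 6.46 and 6.83 in wild type. The knockout arrays stood far above wild type, and every labelled double knockout array was below every NEMO knockout array. Col6a3 was 1.31 ± 0.14 above wild type in the labelled double knockout (2.47-fold, adjusted p = 0.000711) and 1.69 ± 0.14 in the NEMO knockout (3.22-fold, adjusted p = 0.000287).

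Col6a1, the first of the short chains, had 8.12, 8.00 and 7.96 in the labelled double knockout, 8.03, 7.92 and 8.26 in the NEMO knockout and 7.05, 7.30 and 7.27 in wild type. Col6a2, the other short chain and its neighbour on chromosome 10, had 7.99, 7.78 and 7.66 in the labelled double knockout, 7.66, 7.68 and 8.02 in the NEMO knockout and 7.24, 7.02 and 7.31 in wild type. Both genes kept all knockout arrays above wild type. Col6a1 rose by 0.82 ± 0.10 in the labelled double knockout (adjusted p = 0.00133) and by 0.86 ± 0.10 in the NEMO knockout (adjusted p = 0.00123). Col6a2 rose by 0.62 ± 0.12 in the labelled double knockout (adjusted p = 0.0142) and by 0.60 ± 0.12 in the NEMO knockout (adjusted p = 0.0185). The Col6a2 call of the labelled double knockout ended without wild type replicate 2 (0.53, adjusted p = 0.0525) or the group's replicate 1 (0.53, adjusted p = 0.0505), and that of the NEMO knockout without wild type replicate 2 (0.51, adjusted p = 0.0679) or the group's replicate 3 (0.48, adjusted p = 0.0608).

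Of the chains that can stand in for the long chain, Col6a4 was at -0.07 in the labelled double knockout and -0.11 in the NEMO knockout, Col6a5 at -0.02 in the labelled double knockout and 0.10 in the NEMO knockout, and Col6a6 at 0.09 in the labelled double knockout and 0.07 in the NEMO knockout. These 3 genes lie next to each other on chromosome 9. The dimmer probe sets of Col6a5 and Col6a6 read higher, at 0.47 ± 0.14 (adjusted p = 0.0914) and 0.33 ± 0.13 (adjusted p = 0.182) in the NEMO knockout, without being called. Col26a1, known from testis and ovary, was at -0.08 in the labelled double knockout and -0.13 in the NEMO knockout. Col28a1, known from peripheral nerve, was at -0.07 in the labelled double knockout and -0.14 in the NEMO knockout.

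Of the fibril-associated collagens, Col14a1 was called. Its product sits on type I fibrils. It had 9.96, 10.08 and 10.13 in the labelled double knockout, 9.998, 10.09 and 10.12 in the NEMO knockout and 9.11, 9.47 and 9.30 in wild type, with no overlap. The differences were 0.76 ± 0.09 in the labelled double knockout (1.70-fold, adjusted p = 0.0012) and 0.77 ± 0.09 in the NEMO knockout (1.71-fold, adjusted p = 0.00134). Col12a1, its close relative on tendon and ligament fibrils, was at 0.27 ± 0.15 in the labelled double knockout (adjusted p = 0.351) and 0.32 ± 0.15 in the NEMO knockout (adjusted p = 0.258) and was not called. The remaining 7 genes, Col9a1, Col9a2, Col9a3, Col16a1, Col19a1, Col20a1 and Col22a1, ran from -0.11 to 0.05 in the labelled double knockout and from -0.20 to -0.01 in the NEMO knockout.

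The multiplexins of the basement membrane zone read in opposite directions. Col15a1, made by vessel and muscle cells, had 7.38, 7.27 and 7.27 in the labelled double knockout, 7.27, 7.55 and 7.41 in the NEMO knockout and 7.19, 7.02 and 7.04 in wild type. All knockout arrays were above wild type by a narrow gap. The difference was 0.23 ± 0.08 in the labelled double knockout (adjusted p = 0.153) and 0.33 ± 0.08 in the NEMO knockout (adjusted p = 0.0464). That call ended in 12 of 18 alternative settings, among them the removal of replicate 2 or 3 of wild type (adjusted p = 0.136 each), of the group's own replicate 2 (0.137) or 3 (0.124) and of each array of the other knockout group (0.0594 to 0.0725).

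Col18a1, the source of endostatin and a collagen that hepatocytes themselves make, had 10.29, 10.29 and 10.19 in the labelled double knockout, 10.41, 10.25 and 10.34 in the NEMO knockout and 10.52, 10.38 and 10.48 in wild type. The labelled double knockout arrays were all below wild type and the NEMO knockout arrays overlapped it. Its differences were -0.21 ± 0.07 in the labelled double knockout (adjusted p = 0.119) and -0.13 ± 0.07 in the NEMO knockout (adjusted p = 0.347), so it was not called. In the labelled double knockout it passed once each array was centred on its median (-0.27, adjusted p = 0.0355), and also under array weights (-0.23, adjusted p = 0.0486).

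The 8 remaining genes were not called against wild type. Col8a1, a short-chain collagen of vessel walls, was at 0.01 ± 0.17 in the labelled double knockout and 0.34 ± 0.17 in the NEMO knockout, where replicates 1 and 2 read 6.77 and 7.03 and replicate 3 read 6.25, within the wild type range of 6.25 to 6.43. Without that replicate 3 it was called in the NEMO knockout (0.56, limma adjusted p = 0.032). Col8a2 was at -0.12 in the labelled double knockout and -0.01 in the NEMO knockout. Col10a1, the marker of hypertrophic cartilage, was at -0.01 in the labelled double knockout and -0.04 in the NEMO knockout. Col7a1, of the anchoring fibrils under epithelia, was at -0.01 in the labelled double knockout and -0.06 in the NEMO knockout. The transmembrane genes Col13a1, Col17a1, Col23a1 and Col25a1 ran from -0.11 to -0.0015 in the labelled double knockout and from -0.20 to 0.03 in the NEMO knockout.

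**Figure D3:**
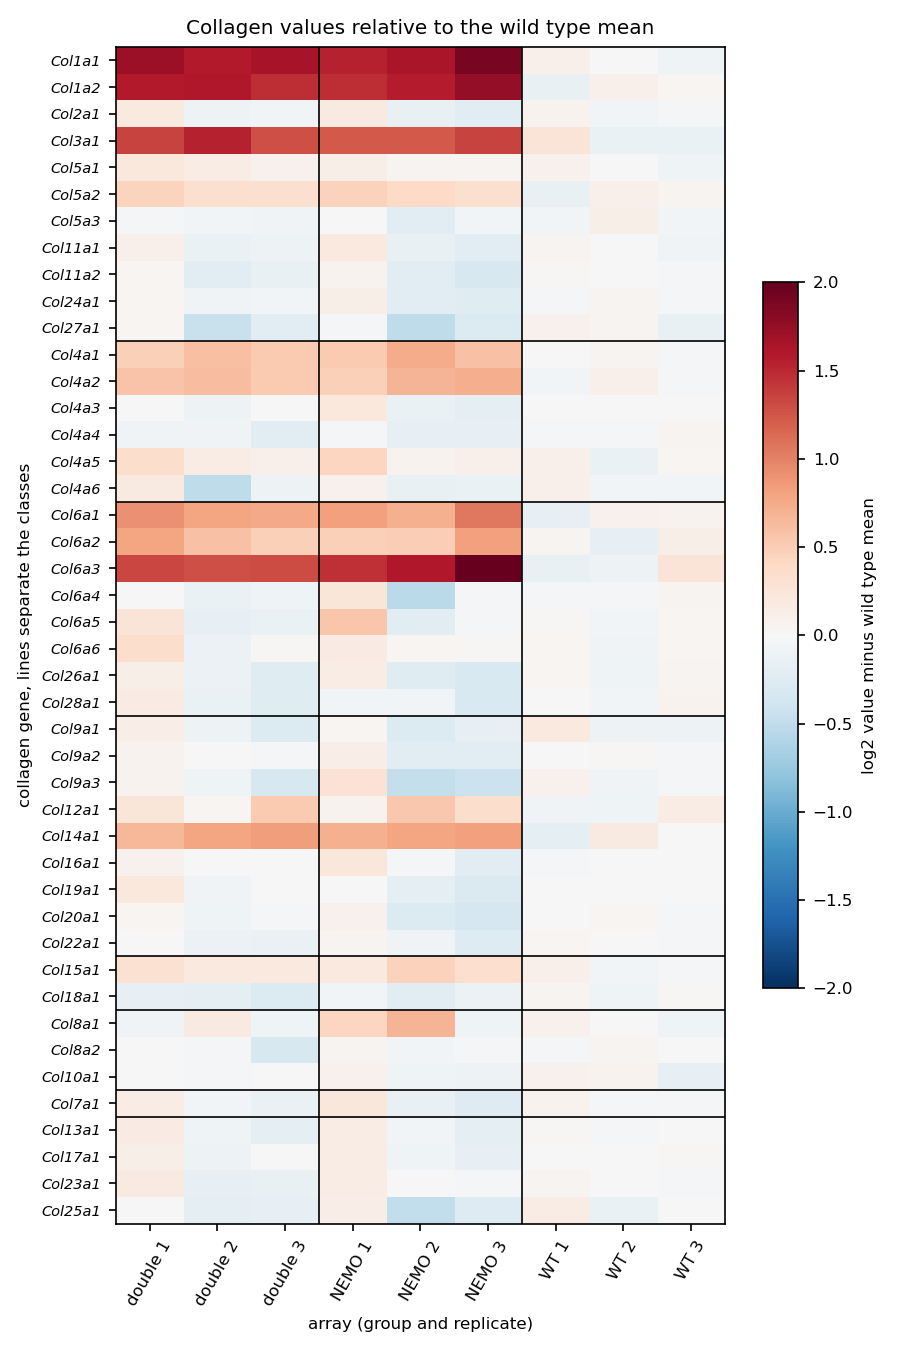
Log2 value of each collagen gene (rows, lines separate the classes) on each array (columns) minus the wild type mean of that gene; red is higher and blue lower. The knockout columns are red in the 11 called genes. Of the 33 others, replicate 1 of each knockout group is the highest array of its group in 31, ties counted.

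Between the knockout groups, none of the 44 collagens was called by limma, where 0.197% of all probe sets were called, 0.0864% higher and 0.111% lower in the labelled double knockout. At an unadjusted p under 0.05 there was 1 collagen, Col6a3, against 7.46% of all probe sets. It was at -0.38 ± 0.14 in the labelled double knockout (95% interval -0.70 to -0.05, unadjusted p = 0.0271, limma adjusted p = 0.6). Groups stood apart for 1 collagen in the lower direction, against 5.75% of all probe sets, and for 0 in the higher direction, against 4.99%. The intervals bound what could have been missed: Col1a1 was at -0.04 (-0.26 to 0.18), Col1a2 at -0.05 (-0.26 to 0.17), Col3a1 at 0.13 (-0.13 to 0.38) and Col4a1 at -0.09 (-0.25 to 0.07). Over the 44 collagens the intervals reached farthest for Col8a1 (-0.72 to 0.05) and Col6a3. None of the 4 intervals reached the size of the same gene's difference from wild type.

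The 33 collagens called in no comparison had a pattern between arrays. NEMO knockout replicate 1 was the highest array of its group in 31 of the 33, ties counted. Labelled double knockout replicate 1 was the highest of its group in 31 of the 33 as well. Over all probe sets the shares were 39.6% for replicate 1 of the labelled double knockout and 43.1% for replicate 1 of the NEMO knockout, and among probe sets at or below the median level 51.8% for the first and 62.8% for the second of these arrays. The median deviation of that array from its group mean over those 33 genes was 0.13 in the labelled double knockout and 0.18 in the NEMO knockout. Wild type replicate 1 was the highest of its group in 20 of the 33, with a median deviation of 0.03. Its shares were 35.2% of all probe sets and 39.5% of those at or below the median level. In the 11 called genes, replicate 1 was the highest array in 6 in the labelled double knockout and in 1 in the NEMO knockout, where replicate 3 was highest in 8. Without NEMO knockout replicate 1 the NEMO knockout had 13 collagens called, the same 11 and, both lower, Col9a3 (-0.45, limma adjusted p = 0.0474) and Col20a1 (-0.31, adjusted p = 0.0285).

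**Figure D4:**
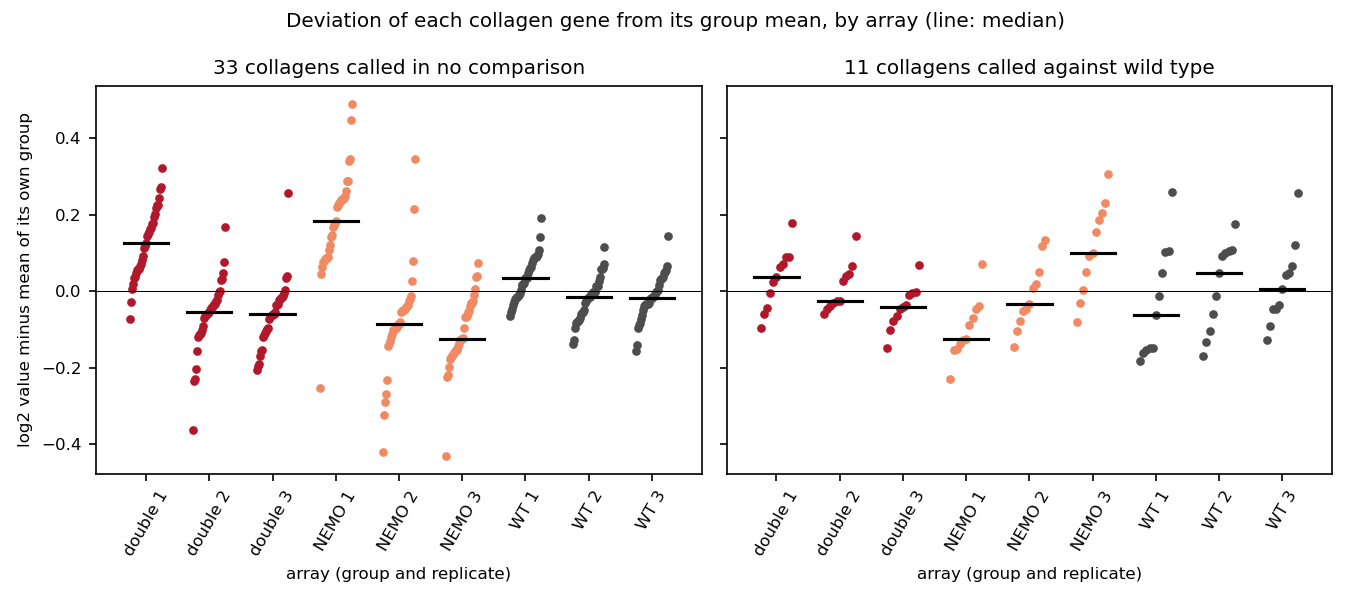
Log2 value minus the mean of the array's own group (y axis) for each collagen gene, by array (x axis), with the median as a line; the left panel holds the 33 genes called in no comparison and the right panel the 11 called. In the left panel the median of replicate 1 lies above 0 in the labelled double knockout (0.13) and the NEMO knockout (0.18), and in the right panel that of NEMO knockout replicate 1 lies below 0.

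Some markers of the cells that make collagen were called along with the collagens, and their part in these results was not tested. The counts below stand beside 5.81% of all probe sets called higher in the labelled double knockout and 5.66% in the NEMO knockout, and 3.51% and 2.02% called lower in those comparisons. The marker lists were chosen with earlier results of these data known, so a count above these shares is a description and no test. Of 10 hepatic stellate cell markers, 5 were called higher and 1 lower in each knockout group, and the summed linear signal ran from 7712 to 8396 in the labelled double knockout, 7834 to 9113 in the NEMO knockout and 6042 to 6887 in wild type. Pdgfrb, the receptor through which platelet-derived growth factor drives these cells, was 1.06 ± 0.14 above wild type in the labelled double knockout and 1.36 ± 0.14 in the NEMO knockout. Desmin, which is also on the smooth muscle list, is among the 10. The marker called lower was Colec11, a collectin, in the labelled double knockout (-0.94 ± 0.11, adjusted p = 0.00106) and Ecm1, an extracellular matrix protein, in the NEMO knockout (-0.58 ± 0.10, adjusted p = 0.00732). Of 6 portal fibroblast markers, 4 were called higher in each group, with sums of 1237 to 1289 in the labelled double knockout, 1285 to 1681 in the NEMO knockout and 732 to 817 in wild type. Not called were Thy1, at 0.06 in the labelled double knockout and 0.22 in the NEMO knockout, and Fbln2, at 0.18 and 0.22. The Eln call of the labelled double knockout ended in 5 of the alternatives (limma adjusted p up to 0.0764). Of 7 measured myofibroblast markers, 3 were called higher in each group. Pdgfra and Timp1 were called in both. The other was Postn in the labelled double knockout (1.29 ± 0.09) and Tagln in the NEMO knockout (0.94 ± 0.24). The Tagln call ended in 9 of the alternatives. The sums were 9101 to 9505 in the labelled double knockout, 8959 to 9565 in the NEMO knockout and 7982 to 8435 in wild type. Fn1, the brightest of the 7 at a mean of 12.89 over all arrays, makes up most of each sum. It was not called, at 0.04 in the labelled double knockout and 0.05 in the NEMO knockout. Acta2, the smooth muscle actin that defines myofibroblasts, had 8.68, 8.73 and 8.24 in the labelled double knockout, 8.25, 9.13 and 8.07 in the NEMO knockout and 7.86, 7.70 and 7.96 in wild type. It was not called either, at 0.71 ± 0.25 in the labelled double knockout (adjusted p = 0.128) and 0.64 ± 0.25 in the NEMO knockout (adjusted p = 0.18). Of 4 smooth muscle markers 2 were called higher in each group, and of 6 bile duct markers 1, Epcam. The smooth muscle count was 1 in 10 of the alternatives in each group, where desmin was lost in the labelled double knockout and Smtn in the NEMO knockout. The Epcam call ended in 9 of the alternatives in the labelled double knockout and in 6 in the NEMO knockout, among them the removal of any 1 wild type array. None of 8 hepatocyte, 8 endothelial, 4 mesothelial or 5 chondrocyte markers was called in either group. At or below the median level of all probe sets lay 3 of the mesothelial and 4 of the chondrocyte markers. No hepatocyte or endothelial marker was that dim. The hepatocyte sums were 74259 to 80842 in the labelled double knockout, 74754 to 76972 in the NEMO knockout and 76879 to 79752 in wild type. Between the knockout groups 2 markers were called, against 0.197% of all probe sets, and no collagen was. Postn, a matrix protein of myofibroblasts, was 1.04 ± 0.09 higher in the labelled double knockout than in the NEMO knockout (adjusted p = 0.00564). Colec11 was at -1.08 ± 0.11 (adjusted p = 0.0108), a call that ended without replicate 3 of the labelled double knockout (adjusted p = 0.067).

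The genes that modify, assemble, break down and sense collagen were counted from lists, beside the same 5.81% and 5.66% of all probe sets called higher in the labelled double knockout and the NEMO knockout. These lists too were chosen with earlier results of these data known. Among 17 measured genes of chain hydroxylation, folding and export, 5 were called higher in the labelled double knockout and 6 in the NEMO knockout, and none lower. Plod2, whose lysine hydroxylation permits stable cross-links, was at 0.90 ± 0.20 in the labelled double knockout and 1.21 ± 0.20 in the NEMO knockout. P3h2, a prolyl hydroxylase, was at 0.67 ± 0.17 in the labelled double knockout and 0.90 ± 0.17 in the NEMO knockout. Serpinh1, the collagen chaperone HSP47, had 8.17, 7.96 and 7.99 in the labelled double knockout, 7.83, 8.28 and 7.88 in the NEMO knockout and 7.32, 7.66 and 7.47 in wild type. It was at 0.55 ± 0.13 in the labelled double knockout (adjusted p = 0.0306), a call lost in 6 of the alternatives, and at 0.51 ± 0.13 in the NEMO knockout (adjusted p = 0.0483), a call lost in 10. The count in the labelled double knockout was 1 without replicate 1 of wild type or any 1 array of the group itself and 2 without replicate 3 of wild type. The calls of Plod2 and P3h2 there ended in 4 and 8 of the alternatives. In the NEMO knockout the count was 3 without replicate 1 of wild type or the group's own replicate 3, and the P3h2 call ended without that replicate 3 (adjusted p = 0.0541).

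Of 11 genes for propeptide removal and cross-linking, 4 were called higher in each group. Lox, the lysyl oxidase that starts cross-linking, had 5.97, 6.49 and 6.12 in the labelled double knockout, 6.31, 7.10 and 7.08 in the NEMO knockout and 4.96, 5.44 and 5.16 in wild type. All knockout arrays were above wild type, by 1.004 ± 0.22 in the labelled double knockout (adjusted p = 0.022) and 1.64 ± 0.22 in the NEMO knockout (adjusted p = 0.00227). Loxl1, a relative of Lox, was at 1.16 ± 0.15 in the labelled double knockout and 1.45 ± 0.15 in the NEMO knockout. Pcolce, the enhancer of propeptide cleavage, was at 0.90 ± 0.12 in the labelled double knockout and 0.96 ± 0.12 in the NEMO knockout. In the labelled double knockout the count was 2 and the Lox call ended (adjusted p up to 0.0787) without replicate 1 or 3 of wild type or replicate 2 or 3 of the group itself. Of 14 measured partners of type IV collagen in the basement membrane, 5 were called higher in each group. Nid1, the linker between laminin and type IV collagen, was at 1.47 ± 0.12 in the labelled double knockout and 1.43 ± 0.12 in the NEMO knockout, and the laminin chain Lama2 at 1.03 ± 0.17 in the labelled double knockout and 1.21 ± 0.17 in the NEMO knockout.

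Of 9 genes for collagen breakdown and uptake, 5 were called higher and 1 lower in the labelled double knockout and 4 higher and none lower in the NEMO knockout. Mmp13, the interstitial collagenase of mice, was at 2.39 ± 0.29 in the labelled double knockout and 2.13 ± 0.29 in the NEMO knockout. Mmp2, a gelatinase, was at 1.70 ± 0.21 in the labelled double knockout and 1.99 ± 0.21 in the NEMO knockout. Mrc2, the receptor that takes up collagen fragments, was at 1.09 ± 0.12 in the labelled double knockout and 1.30 ± 0.12 in the NEMO knockout. The lower one was the gelatinase Mmp9 in the labelled double knockout (-0.53 ± 0.14, adjusted p = 0.0386), a call that ended in 8 of the alternatives. Pepd was called higher in the labelled double knockout alone (0.37 ± 0.09, limma adjusted p = 0.0349), and that call too ended in 8. In the NEMO knockout Pepd was at 0.25 ± 0.09 (adjusted p = 0.159), with its arrays above wild type. Fap, a membrane protease, was at -0.05 in the labelled double knockout and -0.10 in the NEMO knockout and was not called. Of 8 measured receptors, 4 were called higher in each group, among them the collagen-binding kinase Ddr1, at 1.06 ± 0.08 in the labelled double knockout and 1.24 ± 0.08 in the NEMO knockout, and the inhibitory leukocyte receptor Lair1, at 0.93 ± 0.16 in the labelled double knockout and 1.01 ± 0.16 in the NEMO knockout. The receptor count in the labelled double knockout was 2 without any 1 wild type array or the group's own replicate 2 or 3.

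Of 10 ligands known to drive fibrosis, 2 were called higher in the labelled double knockout, Tgfb1 (0.60 ± 0.10) and Pdgfa (0.46 ± 0.12), and 5 in the NEMO knockout, led by Tgfb3 (0.99 ± 0.21), Pdgfd (0.88 ± 0.22), Pdgfa (0.85 ± 0.12) and Tgfb1 (0.65 ± 0.10). In the labelled double knockout, Tgfb3 was at 0.76 ± 0.21 (adjusted p = 0.0505) and Pdgfd at 0.65 ± 0.22 (adjusted p = 0.11). Its count was 1 without replicate 2 or 3 of wild type, its own replicate 2 or 3 or replicate 2 of the other knockout group. Of the 5 calls in the NEMO knockout, those of Tgfb3 (adjusted p up to 0.066), Pdgfb and Pdgfd ended without replicate 1 or 3 of wild type. Those of Pdgfb and Pdgfd also ended without the group's own replicate 3. The Pdgfb call ended in 12 of the alternatives and the Pdgfd call in 8. The Pdgfa call of the labelled double knockout ended in 10. None of the genes in these 6 lists was called between the knockout groups. The lists' median differences ran from 0.09 to 0.50 in the labelled double knockout and from 0.00 to 0.68 in the NEMO knockout.

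**Figure D5:**
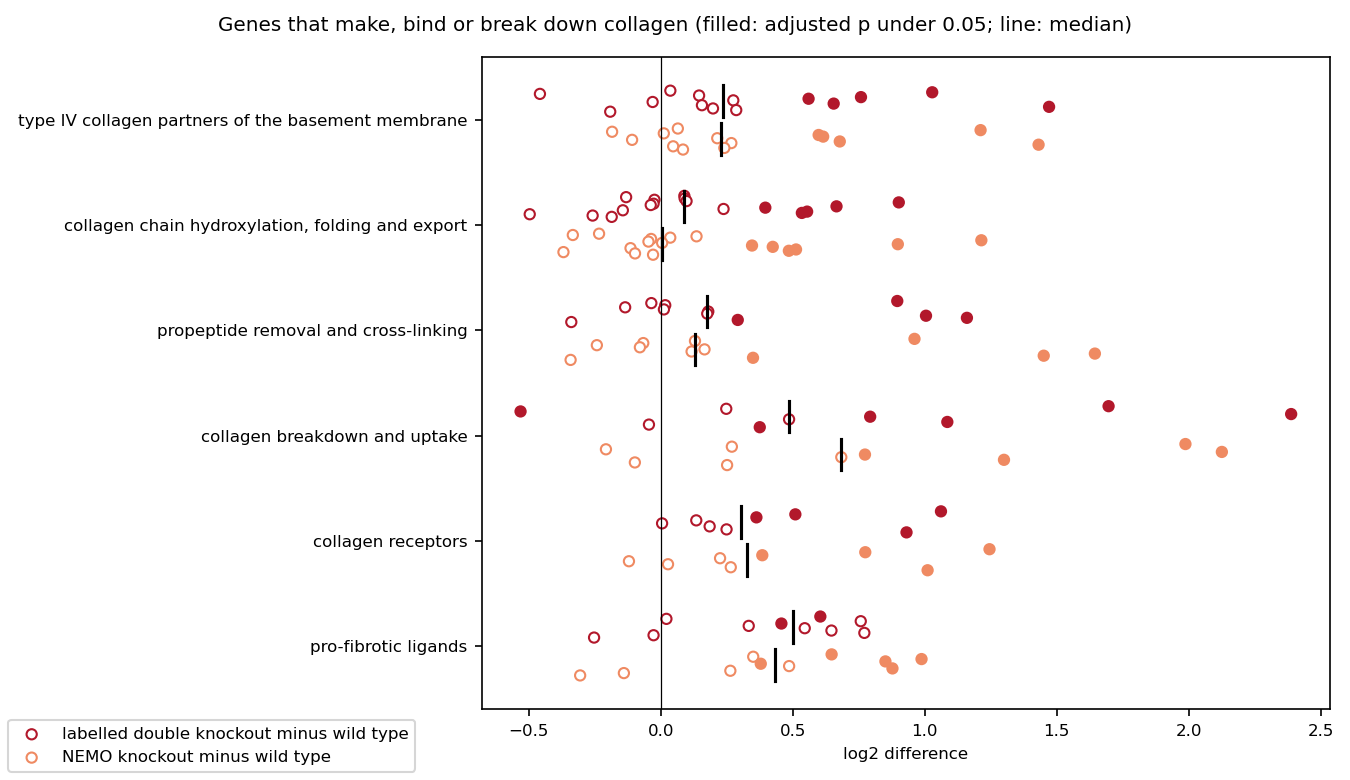
Difference in log2 signal from wild type (x axis) for the genes of 6 lists (rows), each point 1 gene, the labelled double knockout above the NEMO knockout in each row; filled points passed an adjusted p of 0.05 and lines are list medians. The highest points are Mmp13 at 2.39 (labelled double knockout) and 2.13 (NEMO knockout), and the 1 filled point below 0 is Mmp9 in the labelled double knockout.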

How the data were processed

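Per the submitters' processing notes, the authors made the deposited log2 values with RMA. Versions, build and filters are not given in the sources used for this report. RMA equalises array distributions, so a general change of all RNA is not seen, and its median polish can repeat a value across arrays, as in 18 of the 44 collagens. The table has 35556 probe sets, of which 6617 (18.6%) with identifiers below the first annotated one were taken as controls and left out. In R 4.3.3, limma 3.58.1 fitted the other 28939 on all 9 arrays with 1 mean per group (eBayes, no trend), with Benjamini-Hochberg adjustment over all of them and a call at an adjusted p under 0.05. Genes were named from single-symbol probe sets through the platform annotation. All 44 collagens matched the RefSeq gene table (GRCm38.p6), used for names and neighbours. Every called collagen, Col18a1 and the targeted genes are given by array. Pathway lists are given by their called members with the largest differences, except that Serpinh1, Lox, Pdgfrb and Acta2 were named whatever their values. Postn, Tagln, Pdgfra, Timp1, Fn1, Pdgfb, Colec11, Ecm1, Mmp9, Fap, Epcam, Smtn, Col8a1 and the neighbours were added after their values were seen. Thy1, Fbln2, Eln and Pepd were also added in this way. The members and all lists were chosen with earlier results of these data known. The fit was tested on simulated data. The 18 alternatives covered scaling, array weights, trend, group choice, dim probe sets, a replicate block, single arrays left out and the mean over a gene's probe sets. Arrays have no read depth, so precision is limited by the number of arrays. Replicate numbers are not said to pair animals, so the main fit has no block for them. Deviations of same-numbered arrays correlated between the knockout groups at 0.391, 0.0826 and 0.247 for replicates 1, 2 and 3. Between a knockout group and wild type these correlations ran from -0.116 to 0.18. Whether same-numbered knockout arrays share a source was not tested.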

Additional observations from a re-analysis of the deposited data

How the results depend on the processing

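The number of collagens called ran from 8 to 11 in the labelled double knockout and from 9 to 13 in the NEMO knockout over all alternatives, and was 0 between the knockout groups in every one (57 of 28939 probe sets were called there as deposited). Of 215 alternative values per comparison of 12 collagens (the 11 called and Col18a1), 205 kept direction and side of the threshold in the labelled double knockout against wild type, 199 in the NEMO knockout against wild type and 205 between the knockout groups; the causes of the others were not tested. The calls lost were those of Col5a2, Col6a2 and Col15a1, and centring each array moved the median of all probe sets in the labelled double knockout from -0.03 to -0.09 and in the NEMO knockout from -0.04 to -0.10. Between the knockout groups, small differences changed sign: Col6a2 (0.02) was -0.030 with array weights, and Col14a1 (-0.01) was 0.0057 with cyclic loess. With each array left out in turn, Col1a1 ran from -0.12 to 0.060, Col1a2 from -0.11 to 0.033, Col6a1 from -0.12 to 0.049, Col6a2 from -0.069 to 0.14 and Col14a1 from -0.044 to 0.038. With the replicate block, 10 collagens were called in the labelled double knockout, 10 in the NEMO knockout (Col15a1 lost, adjusted p = 0.0763) and 0 between them. With probe sets at or below the median level left out, 26 of the 44 collagens remained, and the other 18 included Col5a2. Signal over background was not measured, and the number of arrays limits the precision of all.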
